A study of Mus musculus with 12 samples.

Results

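The diet by genotype interaction in mouse liver asks whether the effect of losing the mitochondrial carrier gene Slc25a34 in hepatocytes differs between a fast-food diet (FFD) and chow. It was computed for every gene as the log2 difference between hepatocyte knockout (HKO) and control (WT) livers on FFD minus the same difference on chow. A positive value means that HKO stood higher relative to WT on FFD than on chow, and it equals the diet response of HKO livers minus that of WT livers. All 12 libraries of the series entered the contrast, in 4 groups of 3 mice, and 14277 of the 54532 genes in the deposited count table had enough reads to be tested.

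Every mouse was male and carried a floxed Slc25a34 allele, with loxP sites in the promoter and intron 1. Mice received adeno-associated virus at 2 months of age, AAV8-TBG-Cre in the Slc-HKO groups and AAV8-TBG-GFP in the WT control groups, so that both genotypes carried the alleles and a virus. The thyroxine binding globulin (TBG) promoter limits expression to hepatocytes, of which more than 95% are targeted per the labels, and the RNA came from whole liver, which also holds other cell types. After 1 month on chow the animals stayed on chow or were moved to FFD for 2 months, and all were fasted for 16 h before harvest. The composition of FFD is not given in the sources used here.

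Libraries held 12842187 to 24332663 counts in genes. Slc25a34 was at 4.92 to 6.99 CPM (counts scaled to a common library size) in WT chow libraries and 0.308 to 0.720 CPM in HKO chow libraries, and at 1.73 to 4.81 CPM against 0.238 to 0.732 CPM on FFD, so every HKO library lay below every WT library of its diet. Its interaction value was 0.60 (SE 0.69). The hepatocyte gene Alb averaged 46389 ± 5117 CPM in WT chow, 41443 ± 2823 in HKO chow, 37589 ± 1123 in WT FFD and 41872 ± 2972 in HKO FFD (SD, n = 3 each). Over the 23 hepatocyte identity genes tested, 12 interaction values were positive and 11 negative, with a median of 0.02. HKO minus WT values were positive in 8 of the 23 on chow (median −0.03) and in 9 on FFD (median −0.04). Some libraries stood apart within their group. WT chow replicate 3 and WT FFD replicate 2 had Saa1, an acute phase protein gene, at 1691 and 949.6 CPM against 25.1 to 182.3 CPM elsewhere. HKO chow replicate 2 lay at 17.0 on the second principal component, with the WT chow libraries at 8.81 to 22.8, while the other HKO chow libraries lay at −35.4 and −25.7. Results that move with these libraries are given with and without them.

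The pathways described here meet in the fasted liver. Fatty acids reaching a fasting liver activate the nuclear receptor PPARalpha, which switches on genes for fatty acid uptake, activation, oxidation and ketone body formation. The unfolded protein response raises chaperones of the endoplasmic reticulum (ER) when secretory proteins accumulate unfolded there. Interferon-gamma, a cytokine released by T cells and natural killer cells, induces guanylate-binding proteins, immunity-related GTPases and the antigen presentation machinery in hepatocytes and other liver cells.

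No gene passed the interaction test over all genes. In the edgeR quasi-likelihood fit with Benjamini-Hochberg adjustment, 0 of 14277 genes (0%) were below 0.05 in either direction, and the smallest adjusted p was 0.225. Before adjustment, 1293 genes (9.06%) had a p under 0.05, of which 656 had positive values (4.59%) and 637 negative values (4.46%). DESeq2, another count model, called 54 genes with positive and 38 with negative values from the same libraries. It was run without edgeR's filter on low counts, over 27172 genes, so model and filter changed together. Without that filter edgeR itself called 118 and 120 genes. Of these 238 calls, 233 were among the 14277 genes of the main test. Without HKO chow replicate 2, the library that lay among the WT chow libraries on the second component, edgeR called 54 and 27 genes, and without this library and both libraries with high Saa1 it called 85 and 78. No other single library, when left out, gave more than 1 call. Of the 92 DESeq2 calls, 37 were among the 81 edgeR calls made without HKO chow replicate 2. The removal of these 3 libraries together was chosen after their values were seen. The standard error shows what 3 mice per group could resolve: its median over genes was 0.23 on the log2 scale for the interaction, against 0.16 for HKO minus WT within either diet.

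Across genes the estimated knockout effects on the 2 diets were close to uncorrelated. The HKO minus WT values on the 2 diets, which come from separate libraries, had a Pearson correlation of 0.0799 and a Spearman correlation of 0.0811 over 14277 genes. The diet effects in WT and in HKO livers, also from separate libraries, had a Pearson correlation of 0.572 and a Spearman correlation of 0.524. Genes are not independent replicates, so these values are descriptions without a test. Error in the estimates pulls a correlation toward 0, most where effects are small beside their error. The low value for the knockout therefore does not show that it acted differently on the 2 diets. Diet changed 2121 genes in WT and 1939 in HKO livers by edgeR's quasi-likelihood test. The 1017 genes called in both genotypes made up 47.95% of the WT calls and 52.45% of the HKO calls, and 1015 of them moved the same way.

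**Figure D1:**
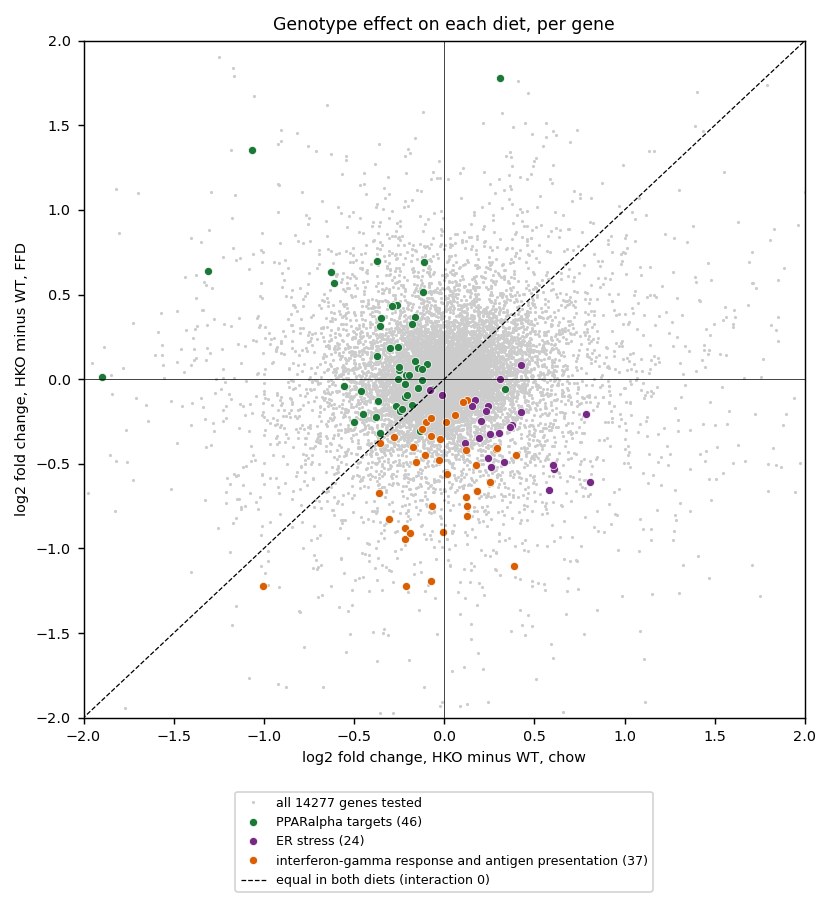
Log2 fold change of HKO against WT on chow (x axis) and on FFD (y axis) for each gene tested, with 3 gene lists coloured; genes above the dashed line have a positive interaction value, and 90 genes beyond 2 on either axis are not drawn. The 46 PPARalpha targets lie mostly above the line, and the 24 ER stress genes and 37 interferon-gamma genes mostly below it.

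The 12 protein-coding genes with a positive value and the smallest unadjusted p included Odf3b, Desi2, Rictor, Slc16a7, Acot3, Elmod3, Acot2, Ppp2r2d, Acot4, Lrfn3 and Rnf125. Their unadjusted p lay between 0.000119 and 0.000375 and their adjusted p between 0.225 and 0.245 (edgeR, Benjamini-Hochberg). Since they were chosen by this contrast, the values below describe them and test nothing further. DESeq2 called all 24 leading genes of both directions, and edgeR called 17 of the 24 without HKO chow replicate 2. Over all genes, HKO libraries lay wholly below WT on chow and wholly above on FFD in 78 (0.546%), and among these 12 the same held for 6.

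Acyl-CoA thioesterases led by size of the value. These enzymes split fatty acyl-CoA into free fatty acid and coenzyme A, Acot2 in mitochondria, Acot1 in the cytosol, and Acot3 and Acot4 in peroxisomes. Acot3 was at 42.1, 28.9 and 26.8 CPM in WT chow, 6.31, 20.0 and 19.8 in HKO chow, 25.1, 23.6 and 32.4 in WT FFD and 85.2, 70.7 and 51.8 in HKO FFD, with an interaction value of 2.42 (SE 0.46). All HKO libraries were the lower on chow and the higher on FFD, with no overlap. Acot2 was at 39.9, 33.7 and 48.6 CPM in WT chow, 10.1, 25.8 and 12.7 in HKO chow, 25.3, 28.6 and 37.8 in WT FFD and 47.5, 48.2 and 47.0 in HKO FFD, with a value of 1.95 (SE 0.38). Here too the HKO libraries were lower on chow and higher on FFD. Acot4 was at 189.2, 148.6 and 135.3 CPM in WT chow, 100.4, 132.4 and 132.8 in HKO chow, 157.2, 126.7 and 180.6 in WT FFD and 268.6, 254.5 and 231.6 in HKO FFD, with a value of 1.07 (SE 0.22).

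The 4 thioesterase genes lie next to each other on mm10 chromosome 12, over 72.5 kb from 83987861 to 84060402 on the plus strand, in the order Acot2, Acot1, Acot4, Acot3. Acot1 had a value of 1.18 (SE 0.25), from mean levels of 298.33 ± 24.85 CPM in WT chow, 195.04 ± 53.33 in HKO chow, 237.86 ± 36.17 in WT FFD and 353.31 ± 56.12 in HKO FFD (SD, n = 3 each). Values of the genes on either side were smaller: Riox1 was at 0.01 (SE 0.21), Numb at 0.06 (SE 0.12), Acot6 at 0.53 (SE 0.57), Dnal1 at 0.40 (SE 0.39) and Elmsan1 at 0.13 (SE 0.26). For Acot6 and Dnal1 the SE was about as large as the value, so a value near that of Acot4 is within their error. The antisense transcript 4732463B04Rik, which overlaps exons of Acot3 and Acot4 on the minus strand, was at 1.16 (SE 0.42). Strand use in the counting is not stated, so reads of these overlapping genes cannot be told apart. Exons of Acot3 and Acot4 also overlap Gm49366 on their own strand, which stranded counting would not separate. The paralogs are also similar in sequence, and how the authors' counting divided their reads is uncertain.

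Among the other genes with positive values, Rictor, a subunit of one of the mTOR kinase complexes, was at 38.4, 36.4 and 37.0 CPM in WT chow, 24.8, 29.1 and 25.2 in HKO chow, 26.2, 26.8 and 26.8 in WT FFD and 32.6, 28.5 and 28.0 in HKO FFD, with a value of 0.65 (SE 0.12). Its WT libraries on chow stood above all other libraries. Slc16a7, a monocarboxylate transporter that carries ketone bodies and pyruvate, was at 90.0, 92.3 and 85.0 CPM in WT chow, 94.8, 78.0 and 87.1 in HKO chow, 98.6, 123.3 and 117.8 in WT FFD and 191.2, 206.1 and 170.7 in HKO FFD, with a value of 0.78 (SE 0.15). The genotypes overlapped on chow, and every HKO library on FFD lay above every other library. Slc16a7 exons overlap another gene on the opposite strand, as do those of Ppp2r2d.

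Odf3b, a gene named for the outer dense fibres of the sperm tail, was at 13.5, 10.9 and 10.9 CPM in WT chow, 6.47, 6.64 and 6.44 in HKO chow, 13.3, 14.5 and 14.4 in WT FFD and 14.2, 13.9 and 13.9 in HKO FFD, with a value of 0.85 (SE 0.15). Its HKO chow libraries stood below all others. Rnf125, a ubiquitin ligase, showed the same shape, with 72.1, 53.9 and 61.5 CPM in WT chow, 16.6, 32.6 and 21.2 in HKO chow, 71.7, 51.0 and 61.5 in WT FFD and 72.3, 72.0 and 50.9 in HKO FFD, and a value of 1.49 (SE 0.31). Further values were 1.01 (SE 0.19) for Desi2, a peptidase, 0.77 (SE 0.15) for Elmod3, an ELMO domain protein, 0.59 (SE 0.12) for Ppp2r2d, a regulatory subunit of a serine/threonine phosphatase, and 1.04 (SE 0.22) for Lrfn3, an adhesion protein.

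The 12 genes with a negative value were Serpina1e, Tmed3, Fgfr1, C9, Moxd1, Spry4, Cyp2d40, Ampd2, Slc26a10, Narf, Uggt1 and Bcar1, with unadjusted p between 2.48e-05 and 0.000712 and adjusted p between 0.225 and 0.265 (edgeR, Benjamini-Hochberg). Over all genes, HKO libraries lay wholly above WT on chow and wholly below on FFD in 67 (0.469%), and among these 12 the same held for 8. Serpina1e, a paralog of alpha-1-antitrypsin, had the smallest p of all genes. It was at 4298, 4737 and 4859 CPM in WT chow, 4052, 5184 and 5072 in HKO chow, 2550, 2054 and 2599 in WT FFD and 1006, 619.0 and 558.5 in HKO FFD, with a value of −1.76 (SE 0.27). The genotypes overlapped on chow and were separate on FFD, and FFD lowered the gene in both, by a log2 fold change of −0.95 in WT (edgeR adjusted p = 0.00693) and −2.71 in HKO (edgeR adjusted p = 2.55e-05). Reads of the near-identical Serpina1 genes can be divided arbitrarily, so its level is uncertain.

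Tmed3, a cargo protein of vesicles between ER and Golgi, was at 10.2, 10.2 and 14.4 CPM in WT chow, 22.3, 15.7 and 20.5 in HKO chow, 11.5, 13.7 and 12.2 in WT FFD and 9.16, 8.14 and 9.07 in HKO FFD, with a value of −1.25 (SE 0.23). Uggt1, which marks misfolded glycoproteins in the ER for another folding cycle, was at 77.5, 70.01 and 89.0 CPM in WT chow, 111.5, 94.6 and 109.7 in HKO chow, 73.8, 70.9 and 66.8 in WT FFD and 63.5, 56.5 and 62.5 in HKO FFD, with a value of −0.63 (SE 0.14). In both genes the HKO libraries were the higher on chow and the lower on FFD.

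Fgfr1, a fibroblast growth factor receptor, was at 19.7, 18.7 and 17.4 CPM in WT chow, 28.3, 24.1 and 25.9 in HKO chow, 13.1, 18.5 and 14.0 in WT FFD and 11.4, 10.9 and 11.1 in HKO FFD, with a value of −0.94 (SE 0.18). An opposite-strand gene overlaps its exons. Spry4, an inhibitor of receptor tyrosine kinase signalling, was at 7.01, 6.20 and 7.12 CPM in WT chow, 25.02, 9.02 and 20.4 in HKO chow, 25.1, 37.3 and 21.8 in WT FFD and 11.4, 9.45 and 19.6 in HKO FFD, with a value of −2.45 (SE 0.49). Both had HKO libraries above WT on chow and below on FFD, although in Spry4 HKO chow replicate 2 was close to the WT range.

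C9, which completes the membrane attack complex of complement, was at 465.3, 362.1 and 363.7 CPM in WT chow, 500.0, 469.1 and 519.2 in HKO chow, 553.6, 475.8 and 524.2 in WT FFD and 355.5, 382.9 and 389.5 in HKO FFD, with a value of −0.78 (SE 0.15). The widest spread belonged to Moxd1, a monooxygenase, at 0.594, 6.98 and 26.8 CPM in WT chow, 130.9, 24.1 and 98.8 in HKO chow, 37.2, 45.4 and 11.1 in WT FFD and 1.55, 3.39 and 2.20 in HKO FFD, with a value of −6.60 (SE 1.31). Its genotypes overlapped on chow. The rest had values of −0.85 (SE 0.18) for the cytochrome P450 gene Cyp2d40, −0.72 (SE 0.15) for the AMP deaminase gene Ampd2, −1.54 (SE 0.33) for Slc26a10, −0.83 (SE 0.18) for Narf and −0.62 (SE 0.14) for the scaffold protein gene Bcar1. Ampd2 and Slc26a10 also share exon positions with genes of the opposite strand.

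**Figure D2:**
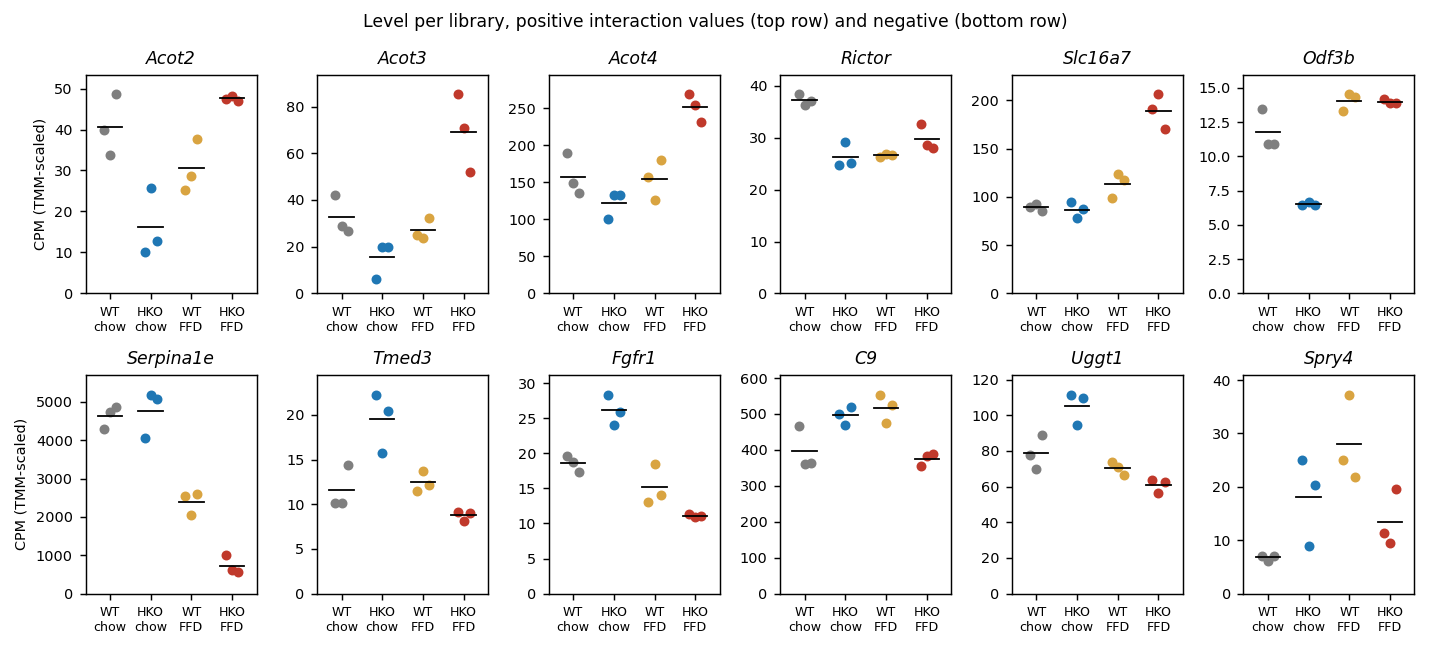
CPM of each library for 6 genes with positive interaction values (top row) and 6 with negative values (bottom row) by group; points are mice and lines are group means, and each y axis starts at 0. In Acot3 the HKO libraries lie below WT on chow and above WT on FFD, and in Tmed3 the reverse.

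Tmem82 lies next to Slc25a34 on the same strand of chromosome 4 (141613376 to 141618633). Its levels were 27.4, 24.7 and 28.0 CPM in WT chow, 14.7, 17.7 and 14.4 in HKO chow, 17.2, 17.7 and 16.6 in WT FFD and 12.3, 13.0 and 14.0 in HKO FFD. HKO libraries were below WT on both diets, and the interaction value was 0.39 (SE 0.14, edgeR adjusted p = 0.444). An opposite-strand gene overlaps its exons.

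Gene lists were described by counts and medians, against a median interaction of −0.01 with 48.9% positive and 51.1% negative values over all genes. No member of any list passed the test over all genes. PPARalpha targets had positive values in 44 of 46 genes tested, with a median of 0.27, and 18 of them were positive at an unadjusted p under 0.05 (4.59% over all genes) and 0 negative. The median HKO minus WT value was −0.25 on chow and 0.04 on FFD. Besides the thioesterases, the list held Pdk4, a kinase that shuts off pyruvate oxidation, at 1.47 (SE 0.54), Cyp4a14, a fatty acid hydroxylase, at 1.26 (SE 0.35), Angptl4, an inhibitor of lipoprotein lipase, at 0.70 (SE 0.18), and Fgf21, a hormone of fasting, at 1.91 (SE 1.01). The 2 negative members were Ucp2 at −0.40 (SE 0.18) and Fabp1 at −0.18 (SE 0.25), and Ucp2 has opposite-strand overlap. FFD raised 20 of the 46 in HKO livers (7.46% of all genes rose) and 8 in WT livers (8.24% of all genes rose), by edgeR's quasi-likelihood test. It lowered 2 in HKO livers (6.12% of all genes fell) and 9 in WT livers (6.61% of all genes fell). The difference between the genotypes in these counts has no test of its own. The median diet effect was 0.21 in HKO and −0.02 in WT livers.

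The score of a list in a library is the mean log2 CPM of its genes, each centred on its mean over all libraries. PPARalpha target scores were 0.0489, −0.131 and 0.184 in WT chow, −0.453, −0.0706 and −0.424 in HKO chow, 0.0196, 0.0540 and 0.0999 in WT FFD and 0.266, 0.229 and 0.176 in HKO FFD. All HKO libraries on FFD lay above WT in this score. Single genes were split there: HKO minus WT values were positive in 27 of the 46 on FFD, and in 2 on chow. On chow HKO replicate 2 lay inside the WT range, and without that library the median interaction was 0.38, with 24 members positive at an unadjusted p under 0.05. Leaving out each of the 12 libraries in turn gave medians of 0.18 to 0.38. Summed over the list, levels on FFD overlapped, at 34020 to 36970 CPM in WT and 36300 to 38340 CPM in HKO.

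In mitochondrial fatty acid oxidation 19 of 23 genes had positive values and the median was 0.16. At an unadjusted p under 0.05, 6 were positive (4.59% over all genes). The number was 3 when replicate 1 or 3 of HKO chow, or replicate 1 or 2 of HKO FFD, was left out. Acadm, the medium-chain acyl-CoA dehydrogenase, was at 696.6, 647.8 and 707.3 CPM in WT chow, 495.8, 567.9 and 520.1 in HKO chow, 591.3, 702.4 and 680.8 in WT FFD and 714.0, 760.1 and 700.2 in HKO FFD, with a value of 0.51 (SE 0.13). HKO was lower on chow in every library, and the genotypes overlapped on FFD. The carnitine acetyltransferase gene Crat was at 0.57 (SE 0.17) and Hadh, of the last oxidation steps, at 0.32 (SE 0.12). Crat has opposite-strand overlap.

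All 7 ketogenesis genes tested had positive values (median 0.27), 4 of them at an unadjusted p under 0.05 (4.59% over all genes). That number was 2 when replicate 1 of WT chow, 1 of HKO chow, 3 of WT FFD, or 1 or 2 of HKO FFD was left out. Beside Slc16a7 the list included the transporter Slc16a1 at 0.80 (SE 0.21). Of 20 lipid droplet genes 16 had positive values, and the median was 0.18, which was 0.07 without WT chow replicate 3 and 0.10 without HKO chow replicate 3. Plin4, a droplet coat protein, was at 49.3, 53.8 and 47.9 CPM in WT chow, 44.8, 49.1 and 30.9 in HKO chow, 121.7, 173.1 and 124.0 in WT FFD and 247.3, 285.5 and 219.7 in HKO FFD, with a value of 1.12 (SE 0.24). HKO libraries stood above WT on FFD only. Exons of Plin4 and of Fitm2 overlap opposite-strand genes. Fitm2, which helps lipid droplets form, was at 0.51 (SE 0.13), and Hsd17b13, a droplet dehydrogenase, at 0.44 (SE 0.15).

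ER stress genes ran the other way. Values were negative in 23 of 24, with a median of −0.60, and 10 were negative at an unadjusted p under 0.05 (4.46% over all genes) and 0 positive. The median HKO minus WT value was 0.28 on chow and −0.28 on FFD. Sec61b, a subunit of the channel through which secretory proteins enter the ER, was at 31.1, 29.7 and 35.9 CPM in WT chow, 37.3, 37.1 and 44.8 in HKO chow, 31.3, 27.9 and 26.2 in WT FFD and 25.1, 19.8 and 23.7 in HKO FFD, with a value of −0.62 (SE 0.17). Its HKO libraries were the higher on chow and the lower on FFD. Sel1l, of ER-associated degradation, was at −0.62 (SE 0.23), the channel subunit Sec61a1 at −0.31 (SE 0.13), and the chaperone cofactors Hyou1 and Sdf2l1 at −1.11 (SE 0.46) and −1.42 (SE 0.61). The main ER chaperone Hspa5 averaged 1237.9 ± 639.6 CPM in WT chow, 1556.7 ± 253.2 in HKO chow, 719.26 ± 228.5 in WT FFD and 512.75 ± 80.45 in HKO FFD (SD, n = 3 each), with a value of −0.82 (SE 0.44). Its groups overlapped on both diets. Exons of Sec61a1, Pdia6 and Hsp90b1 overlap opposite-strand genes. The only positive member was Derl1 at 0.02 (SE 0.15).

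The spread of this list follows libraries as well as groups. ER stress scores were −0.338, 0.0555 and 0.694 in WT chow, 0.515, 0.454 and 0.672 in HKO chow, −0.288, 0.0613 and −0.377 in WT FFD and −0.355, −0.632 and −0.461 in HKO FFD. WT chow replicate 3 and WT FFD replicate 2, with acute phase scores of 0.958 and 1.29 against −0.862 to 0.152 in the other libraries, had the highest score of their group. Without both, all 24 values were negative, the median was −0.76 and 21 were negative at an unadjusted p under 0.05. That number was also 21 without WT chow replicate 3 alone. It was 1 without WT chow replicate 2, 2 without WT FFD replicate 2, 3 without WT chow replicate 1, HKO chow replicate 3 or HKO FFD replicate 2, and 4 without HKO chow replicate 1. FFD lowered 18 members in HKO livers (6.12% of all genes fell) and 0 in WT livers (6.61% of all genes fell), by edgeR's quasi-likelihood test. The difference between these counts has no test of its own. WT livers also moved down, with a median diet effect of −0.39 against −0.89 in HKO. The HKO number was 11 without HKO FFD replicate 2, and the WT number was 13 without WT chow replicate 1 and 12 with no filter on low counts.

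The ER stress element, spelled CCAAT and CCACG with 9 bases of any kind between them and searched on both strands over 250 bases before to 50 bases after the start site of RefSeq promoters (GRCm38.p6), was found in 9 of the 20 tested members with a promoter in the table (45%) and in 20 of all 10560 tested genes with one (0.189%). 4 chaperone and folding genes that carry it are shown here, 250 bases up to the start site, in the direction of the gene, with the fixed bases of the element in capitals. Where the element lies on the other strand, its fixed bases read CGTGG and ATTGG.
Pdia6, a protein disulfide isomerase, chr12:17266339-17266588, plus strand: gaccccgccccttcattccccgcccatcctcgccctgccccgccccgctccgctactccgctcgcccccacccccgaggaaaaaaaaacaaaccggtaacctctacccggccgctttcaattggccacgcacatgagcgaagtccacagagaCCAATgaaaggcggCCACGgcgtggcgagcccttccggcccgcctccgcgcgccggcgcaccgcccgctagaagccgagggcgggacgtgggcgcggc
Creld2, an ER folding factor, chr15:88819396-88819645, plus strand: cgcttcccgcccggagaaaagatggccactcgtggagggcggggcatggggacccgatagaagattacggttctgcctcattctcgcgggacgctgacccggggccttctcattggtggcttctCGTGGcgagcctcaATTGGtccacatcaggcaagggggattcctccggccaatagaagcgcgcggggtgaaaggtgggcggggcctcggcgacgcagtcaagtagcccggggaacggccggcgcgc
Hspa5, chr2:34771840-34772089, plus strand: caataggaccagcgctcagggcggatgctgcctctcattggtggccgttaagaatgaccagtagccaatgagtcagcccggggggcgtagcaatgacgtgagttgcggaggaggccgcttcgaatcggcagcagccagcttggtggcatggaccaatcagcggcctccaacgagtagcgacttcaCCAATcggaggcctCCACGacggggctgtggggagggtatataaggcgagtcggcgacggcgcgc
Hsp90b1, the ER member of the heat shock protein 90 family, chr10:86705445-86705694, minus strand: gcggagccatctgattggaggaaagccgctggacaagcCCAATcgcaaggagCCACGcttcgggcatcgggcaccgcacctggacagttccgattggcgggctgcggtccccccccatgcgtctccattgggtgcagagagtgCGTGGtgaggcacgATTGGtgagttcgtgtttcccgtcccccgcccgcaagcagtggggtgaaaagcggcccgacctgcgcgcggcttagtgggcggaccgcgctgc
Hsp90b1 holds the element once on each strand, 212 and 107 bases before the start site, and Hspa5 holds it 65 bases before, Pdia6 98 bases before and Creld2 126 bases before. Interaction values were −0.65 (SE 0.26) for Pdia6, −1.23 (SE 0.68) for Creld2 and −0.54 (SE 0.32) for Hsp90b1. The 9 members with the element had a median value of −0.65, and 1 was below 0.05 without adjustment. The 11 members without it in this window had a median of −0.58 and 6 were below 0.05.

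Interferon-gamma response and antigen presentation genes had negative values in 37 of 37, with a median of −0.54. At an unadjusted p under 0.05, 10 were negative (4.46% over all genes). The median HKO minus WT value was −0.03 on chow and −0.49 on FFD. FFD raised 29 of the 37 in WT livers (8.24% of all genes rose) and 12 in HKO livers (7.46% of all genes rose) by edgeR's quasi-likelihood test. The median diet effects were 1.002 in WT and 0.41 in HKO, and the difference between the counts has no test of its own. The WT number was 17 without WT FFD replicate 3 and 19 without WT chow replicate 2, and the HKO number was 3 without HKO chow replicate 3 and 4 with replicate 1 of HKO chow, or 1 or 2 of HKO FFD, left out. HKO libraries lay wholly below WT on FFD in 26 of the 37, against 8.37% of all genes.

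The members with the smallest p were Gbp4, Psmb9 and Psmb8. Gbp4, a guanylate-binding protein, was at 2.55, 2.57 and 3.40 CPM in WT chow, 2.69, 4.93 and 3.38 in HKO chow, 6.56, 7.002 and 11.4 in WT FFD and 4.78, 3.63 and 3.30 in HKO FFD, with a value of −1.49 (SE 0.39). Psmb9, a subunit of the immunoproteasome, was at 9.98, 7.04 and 9.75 CPM in WT chow, 8.08, 7.86 and 7.09 in HKO chow, 21.6, 23.2 and 30.9 in WT FFD and 12.8, 13.0 and 13.6 in HKO FFD, with a value of −0.73 (SE 0.22). In both genes the genotypes overlapped on chow and every HKO library lay below WT on FFD. Psmb8, another immunoproteasome subunit, was at −0.70 (SE 0.22). Gbp4 shares exon positions with Gbp8 and Gbp9 on its own strand, and Psmb9 and Psmb8 with genes of the opposite strand.

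List scores on FFD were 0.535, 0.525 and 0.874 in WT and 0.266, 0.0698 and −0.114 in HKO, without overlap. On chow they were −0.171, −0.405 and −0.408 in WT and −0.616, −0.0672 and −0.489 in HKO, where replicate 2 was the highest of all chow libraries. Without HKO chow replicate 2 the median interaction was −0.25, with 34 of 37 negative and 5 at an unadjusted p under 0.05. That number was 16 without HKO chow replicate 1 and 6 without HKO FFD replicate 3.

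Short interferon motifs were frequent in these promoters. The interferon-stimulated response element, GAAA and GAAA with 2 bases between them, searched on both strands, was found in 12 of 27 members with a RefSeq promoter (44.4%) and in 3.84% of the 10560 tested genes with one. The gamma-activated site TTCNNNGAA, which reads alike on both strands, was found in 9 of 27 (33.3%) against 8.55%. 3 GTPase genes that hold 1 or both are shown as the 120 bases before the start site, in the direction of the gene, with the fixed bases of the motifs in capitals.
Gbp7, chr3:142530216-142530335, plus strand: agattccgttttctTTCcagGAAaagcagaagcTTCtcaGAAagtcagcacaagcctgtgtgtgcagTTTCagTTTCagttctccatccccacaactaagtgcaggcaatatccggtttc
Irgm1, chr11:48871421-48871540, minus strand: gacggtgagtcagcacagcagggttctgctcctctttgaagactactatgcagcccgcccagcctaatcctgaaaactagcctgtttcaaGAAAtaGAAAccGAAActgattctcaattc
Igtp, chr11:58199436-58199555, plus strand: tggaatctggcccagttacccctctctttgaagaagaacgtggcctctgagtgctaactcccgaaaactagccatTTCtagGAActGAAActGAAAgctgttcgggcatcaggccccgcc
The response element was also found in 14 of 26 promoters of type I interferon genes (53.8%). The 2 copies of the response element in Irgm1 overlap, and in Gbp7 the element lies on the other strand. Interaction values were −0.58 (SE 0.22) for Gbp7, −0.45 (SE 0.18) for Irgm1 and −0.31 (SE 0.25) for Igtp. Gbp7 and Igtp each share exon positions with another gene of their own strand. The 12 members with the response element had a median of −0.38 and the 15 without it a median of −0.66. For the PPARalpha targets, the direct repeat of AGGTCA with 1 base between the copies was found in 0 of 37 promoters and in 0.0568% of tested genes.

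Markers of lymphocytes, which include the cells that release interferon-gamma, had values of the same sign as this list. Of 26 lymphocyte markers 21 had enough reads to be tested, and 20 of these had negative values. The median of the 21 was −1.81, and 12 were negative at an unadjusted p under 0.05 (4.46% over all genes). Summed over the list, levels were 32.0 to 33.5 CPM in WT chow, 35.2 to 40.7 in HKO chow, 47.3 to 80.6 in WT FFD and 29.7 to 43.2 in HKO FFD, and at most 2 markers were at 0 in a library. Trbc2, of the T cell receptor, was at 0.178, 0.112 and 0.257 CPM in WT chow, 0.539, 0.277 and 0.195 in HKO chow, 0.691, 0.732 and 0.615 in WT FFD and 0.269, 0.119 and 0.122 in HKO FFD, with a value of −2.86 (SE 0.74). HKO libraries lay below WT on FFD, at a level of few reads. Jchain, of secreted antibodies, was at −2.06 (SE 0.51), the antibody chain gene Ighm at −1.81 (SE 0.46) and the T cell gene Cd8a at −3.80 (SE 1.01). The number below 0.05 was 7 without WT chow replicate 2, 6 with WT FFD replicate 3 left out and 5 with HKO FFD replicate 3 left out. The part of the lymphocyte markers in the interferon-gamma list was not tested. In bulk tissue, fewer cells of a type and less RNA per cell cannot be told apart.

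Type I interferon genes, the antiviral set, were negative in 34 of 36, with a median of −0.29. The median HKO minus WT value was −0.11 on chow and −0.40 on FFD, with 12 and 1 of the 36 positive. At an unadjusted p under 0.05, 7 were negative (4.46% over all genes). Rtp4, which interferon induces, was at 7.01, 6.87 and 6.48 CPM in WT chow, 7.70, 6.86 and 7.15 in HKO chow, 14.96, 16.5 and 17.8 in WT FFD and 10.03, 11.8 and 10.6 in HKO FFD, with a value of −0.69 (SE 0.16). Its genotypes overlapped on chow and were separate on FFD. Usp18, which removes the ubiquitin-like protein ISG15, was at −0.996 (SE 0.24) and Xaf1 at −0.71 (SE 0.26). Usp18 has opposite-strand overlap, and Rtp4 overlaps a gene of its own strand. Without HKO chow replicate 2 the list's median was −0.14. The number below 0.05 was 4 with replicate 2 or 3 of WT chow, or 1 or 3 of HKO FFD, left out.

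**Figure D3:**
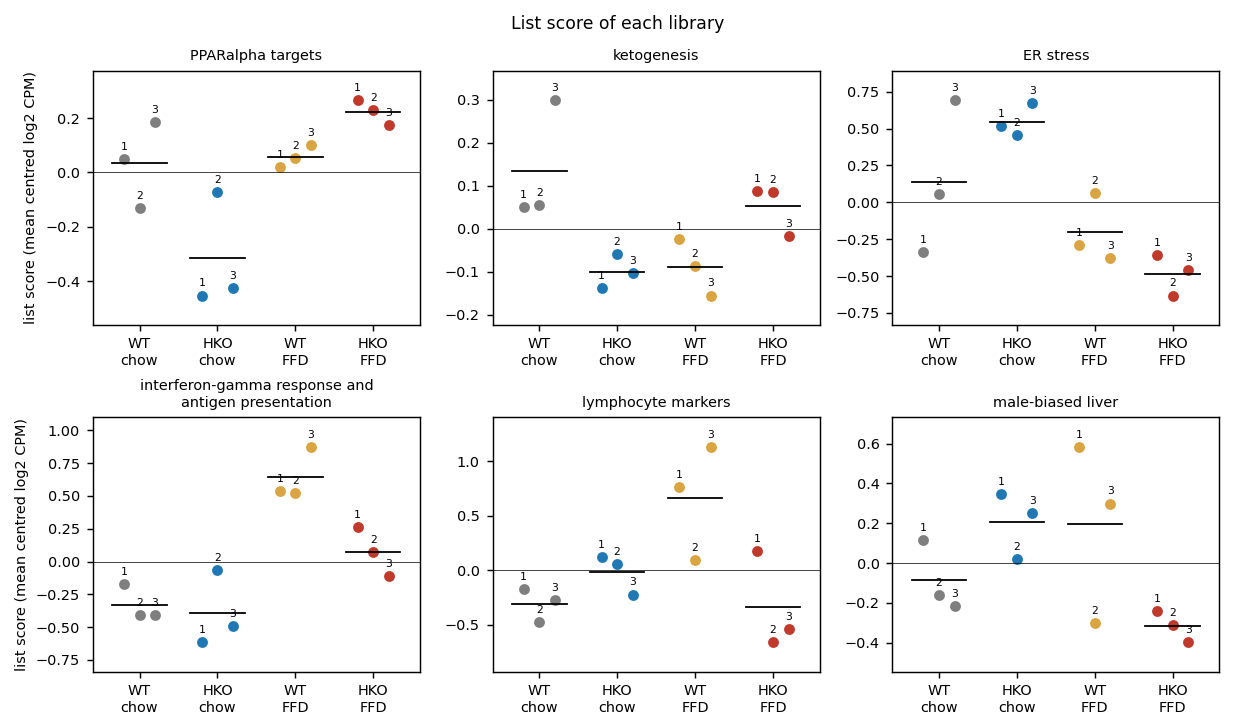
List score of each library (mean centred log2 CPM over the list's genes) for 6 lists by group; points are mice, numbered by replicate, and lines are group means. HKO libraries on FFD lie above WT for PPARalpha targets and below WT for interferon-gamma genes, and HKO chow replicate 2 lies inside the WT chow range for PPARalpha targets.

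Genes that are higher in male than in female mouse liver had negative values in 24 of 26, with a median of −0.60. The 11 negative at an unadjusted p under 0.05 (4.46% over all genes) included Serpina1e. HKO minus WT medians were 0.19 on chow and −0.35 on FFD. Mup1, a major urinary protein gene of a near-identical family, was at 15.6, 13.6 and 20.5 CPM in WT chow, 39.2, 21.6 and 24.8 in HKO chow, 30.2, 14.1 and 19.7 in WT FFD and 14.9, 13.4 and 8.34 in HKO FFD, with a value of −1.59 (SE 0.43). Cyp7b1, an oxysterol hydroxylase of bile acid synthesis, was at 352.1, 232.5 and 240.9 CPM in WT chow, 350.3, 323.8 and 383.0 in HKO chow, 282.8, 138.8 and 256.1 in WT FFD and 150.3, 115.1 and 157.1 in HKO FFD, with a value of −1.04 (SE 0.33). HKO libraries stood higher on chow in Mup1 only, and on FFD the genotypes overlapped in both genes, since WT FFD replicate 2 was low. List scores on FFD were 0.584, −0.299 and 0.299 in WT and −0.243, −0.312 and −0.398 in HKO. Without WT FFD replicate 2 the median was −0.77 and 18 members were below 0.05, and the number was 7 without WT chow replicate 2, HKO chow replicate 1 or WT FFD replicate 1. Of 25 genes higher in females 10 were tested, of which 5 had positive and 5 negative values, with a median of 0.29. That median ran from −0.04 without HKO FFD replicate 1 to 0.84 without WT FFD replicate 2, so its sign depended on single libraries. The 4 members at an unadjusted p under 0.05, Acot3, Cyp4a14, Cyp4a10 and Cd36, were positive (4.59% over all genes) and also stand among the PPARalpha targets.

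Circadian clock genes had values of both signs. Of 21 tested, 5 were positive (4.59% over all genes) and 6 negative (4.46% over all genes) at an unadjusted p under 0.05. The median was −0.25. Dbp, a transcription factor of the clock's output, was at 52.8, 31.5 and 19.1 CPM in WT chow, 62.3, 44.6 and 50.3 in HKO chow, 113.5, 93.3 and 105.4 in WT FFD and 72.4, 43.4 and 56.4 in HKO FFD, with a value of −1.46 (SE 0.40). HKO libraries lay below WT on FFD and overlapped with it on chow. Arntl, the activator that drives Dbp, was at 1.28 (SE 0.41), Rora, another activator, at 0.39 (SE 0.13), and the repressors Bhlhe41 and Ciart at −1.05 (SE 0.31) and −2.05 (SE 0.71). The number of positive members below 0.05 was 2 without WT chow replicate 2, HKO chow replicate 2 or HKO FFD replicate 2, and 3 without WT chow replicate 3 or HKO chow replicate 3. The median was −0.11 without WT chow replicate 3 or HKO chow replicate 2, and −0.15 without HKO FFD replicate 1. The hour of harvest is not given in the sources used here. Exons of Dbp, Arntl, Rora and Bhlhe41 overlap opposite-strand genes.

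Mitochondrial carriers, the family of Slc25a34, had a median of 0.01 over 44 genes. At an unadjusted p under 0.05, 2 were positive and 1 negative (4.59% and 4.46% over all genes). Leaving out 1 library moved that median between −0.06 (without WT chow replicate 1) and 0.06 (without WT chow replicate 2). The 46 nuclear respiratory chain genes had a median of −0.09 and 0 below 0.05 in either direction. Their median was −0.02 without HKO chow replicate 1, and −0.15 with 5 negative below 0.05 without HKO chow replicate 2. Mitochondrial biogenesis and protein quality genes had a median of 0.08 over 27, or 0.05 without HKO chow replicate 2. Of these genes 4 were positive below 0.05 (4.59% over all genes). Among them was Clpx, a mitochondrial chaperone, at 1.17 (SE 0.27). FFD lowered 19 of 24 cholesterol synthesis genes in each genotype by edgeR's quasi-likelihood test, against 6.61% of all genes in WT and 6.12% in HKO livers. Their median interaction was −0.10, and it ran from −0.24 without HKO chow replicate 1 to 0.02 without WT chow replicate 2 or HKO chow replicate 2, so it held no stable sign. Cytosolic ribosome genes had a median of −0.03 over 37, between −0.07 without HKO chow replicate 2 and 0.01 without WT chow replicate 1. Pericentral hepatocyte genes had a median of −0.25 over 24, with 4 negative below 0.05 (4.46% over all genes). The median was −0.14 without WT chow replicate 2 and −0.40 without HKO FFD replicate 2, and the number was 2 without WT FFD replicate 1. Among them was Glul, glutamine synthetase, at 754.1, 823.8 and 785.1 CPM in WT chow, 1408, 1034 and 1294 in HKO chow, 1248, 1255 and 1347 in WT FFD and 1307, 1509 and 1243 in HKO FFD, with a value of −0.59 (SE 0.16). Its WT chow libraries stood below all others, and its exons overlap other genes on both strands. The median was −0.29 for 27 acute phase genes, and it turned to 0.35 without WT FFD replicate 2 and was −0.95, with 9 negative below 0.05, without WT chow replicate 3, the libraries with high Saa1. It was −0.04, −0.01 and −0.14 without WT chow replicate 1, WT chow replicate 2 and HKO FFD replicate 3, and −0.45 and −0.48 without WT FFD replicates 1 and 3. For 20 macrophage markers the median was −0.25, or −0.05 without WT chow replicate 1 and −0.14 without HKO chow replicate 2.

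**Figure D4:**
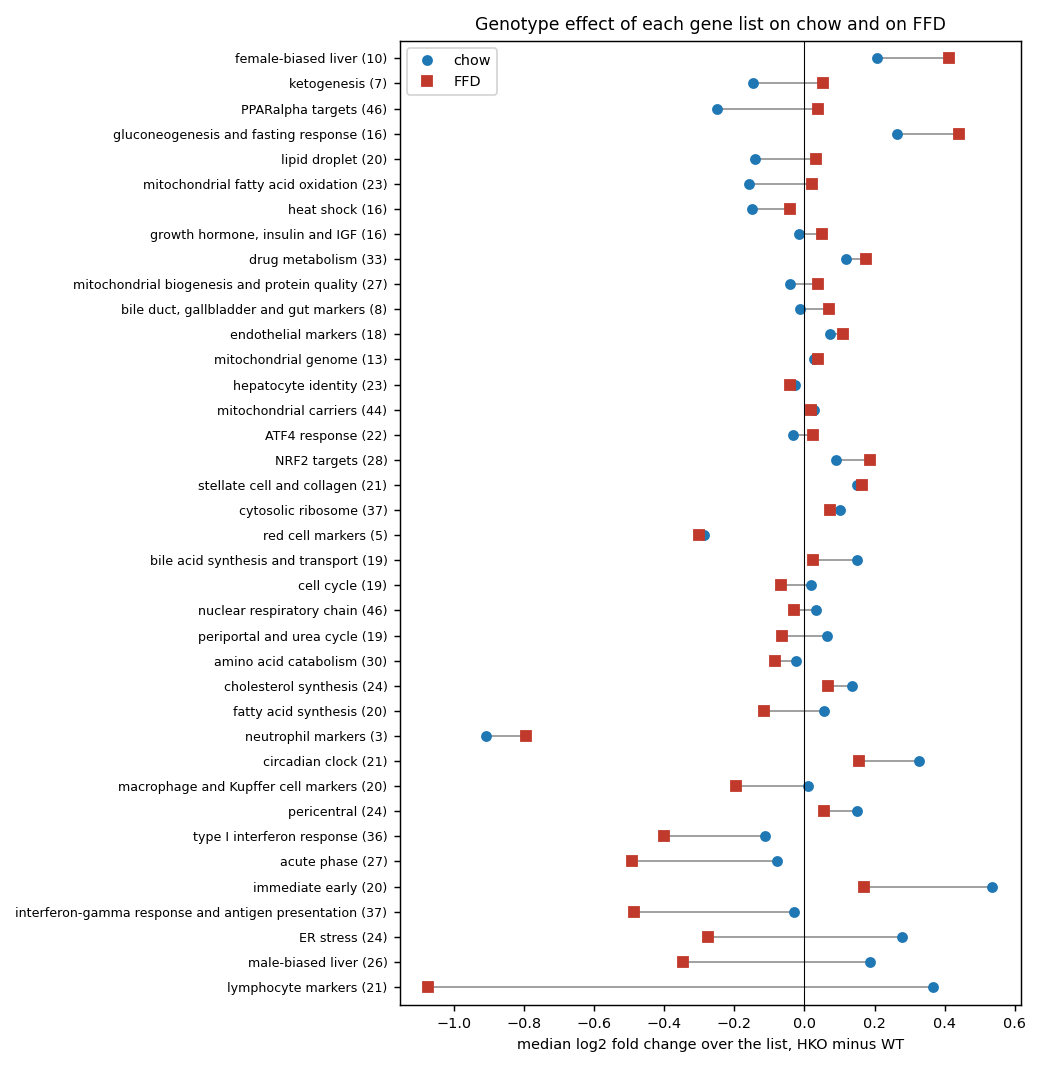
Median log2 fold change of HKO against WT over each of 38 gene lists on chow (circles) and FFD (squares), ordered by the list's median interaction, with the number of genes tested in brackets. Lymphocyte markers, male-biased, ER stress and interferon-gamma genes stand lowest, and ketogenesis and PPARalpha genes are among the highest, beside female-biased genes, whose median changes sign when 1 library is left out.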

How the data were processed

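RNA-seq of 12 mouse livers was analysed, 1 mouse per library. The authors deposited raw read counts per gene, made with STAR (version not given) and featureCounts 1.5.0-p3 on mm10, per the submitters' processing notes. The strand setting and annotation release are not given in the sources used here. No column of sample values was left unused.

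The deposited counts were fitted with edgeR 4.0.16 (R 4.3.3) as 4 group means, with TMM scaling, filterByExpr and the quasi-likelihood test. P-values were adjusted by Benjamini-Hochberg over all 14277 genes, with a threshold of 0.05. CPM values use TMM-scaled library sizes, and list scores use log2 CPM with a prior count of 2. The code was tested on simulated data. Genes named were the 12 protein-coding genes per direction with the smallest p whose highest group averaged 1 CPM or more, up to 3 members per list with the smallest p, of which the text gives a selection, and Slc25a34 and Tmem82. Other genes were named after their values were seen. Some genes that the rule selects are not reported here. The members and the 38 gene lists were chosen with earlier results of these data known.

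Alternatives were RLE scaling, no filter, a filter of 1 CPM in at least 3 libraries, robust fitting, DESeq2 1.42.0, limma 3.58.1 voom, a replicate block, and leaving out libraries. Totals of 12842187 to 24332663 counts and 3 mice per group limit precision.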

Additional observations from a re-analysis of the deposited data

Results flagged for a closer look

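The ketogenesis list score differed in direction between the diets. It was 0.0516, 0.0547 and 0.299 in WT chow and −0.137, −0.0581 and −0.103 in HKO chow, so all HKO libraries were lower on chow. On FFD it was −0.0239, −0.0859 and −0.155 in WT and 0.0882, 0.0851 and −0.0163 in HKO, so all HKO libraries were higher. The difference between the diets' genotype effects was 0.375, and it was not tested. On FFD the lowest HKO score, −0.0163, lay close to the highest WT score, −0.0239. Among the 7 members, 0 had HKO libraries wholly below WT on chow and wholly above on FFD (0.546% over all genes). Only ketogenesis was flagged when all 38 list scores were searched for such a reversal.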

How the results depend on the processing

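The count of 0 genes past the threshold held under RLE scaling, the 1 CPM filter, robust fitting and limma voom. With no filter on low counts there were 118 positive and 120 negative calls, and 989 and 956 genes at an unadjusted p under 0.05. Of these 238 calls, 233 were genes that the main test had kept and not called. DESeq2, also run without that filter, gave 54 and 38 calls. Without the 3 libraries that stand apart, chosen after seeing the data, there were 85 and 78 calls, and 1089 and 988 genes at an unadjusted p under 0.05. Leaving out each library in turn gave 0 to 54 positive and 0 to 27 negative calls. The 54 and 27 came without HKO chow replicate 2. Leaving out HKO FFD replicate 1 gave 1 negative call, and leaving out any other single library gave 0. The cause of these differences was not tested. The interaction value of Slc25a34 ranged from −0.20 (without HKO FFD replicate 3) to 0.96 (without WT FFD replicate 2) when 1 library was left out, and was 1.16 without the 3 libraries. Its level in HKO libraries was under 1 CPM. The replicate block gave 1 negative call, Arrdc3. Libraries with the same number had correlations of −0.118 to 0.130 in their deviations from group means, and 1 of 18 pairs was over 0.1. Libraries with different numbers ranged from −0.16 to 0.16, so no pairing by number was seen. This check cannot show whether mice shared a litter or day.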

Other observations

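A few genes varied widely between libraries of the same group. The mitochondrial transcript mt-Co3 was at 79.2 CPM in WT chow replicate 2 and 76.6 CPM in HKO FFD replicate 1, against 19.2 to 34.1 CPM in the other libraries. For mt-Atp6, HKO FFD replicate 2 was at 125.9 CPM, against 18.1 to 26.9 CPM elsewhere. Exons of mt-Co3 and mt-Atp6 overlap each other on the same strand. Il1r1, the interleukin-1 receptor, was at 53.8 to 57.4 CPM in WT chow and 128.5 to 249.6 CPM in HKO chow. In WT FFD it was at 47.9, 264.6 and 98.1 CPM, where replicate 2 is a library with high Saa1. WT chow replicate 3, with Saa1 at 1691 CPM, was within the narrow WT chow range of Il1r1. Its HKO FFD levels are not reported here.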
